A study of Mus musculus with 12 samples.

Results

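The data describe how 4T1 mammary carcinoma cells responded to coculture with Gr1+CD11b+ myeloid cells taken from tumors. Of the 12 RNA-Seq libraries of the series, 8 belong to this comparison by their group labels: 4 of Tu-Gr1+CD11b+–primed 4T1 cells (4T1_MDSC_T) and 4 of parental 4T1 cells (4T1). The other 4, of Spl-Gr1+CD11b+–primed 4T1 cells (4T1_MDSC_S), received Gr1+ cells from the spleen of the same kind of host and are used here for contrast. 4T1 is an established mammary tumor line of BALB/c mouse origin.

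For priming, Gr1+ cells were enriched on a magnetic column from tumors or spleens of BALB/c mice that carried 4T1 tumors, at day 21 after injection per the labels (the methods text of the study gives another day). They were then kept apart from the 4T1 cells by a Transwell membrane with pores of 0.4 μm for 48 hours, and the 4T1 cells were lysed in the well. Soluble factors and small vesicles can cross such a membrane, whereas cells are held back. The sources used here do not say how many mice supplied the Gr1+ cells, whether these were pooled, or whether the parental cells were kept below an empty insert. The numbers 1 to 4 name libraries within a group, nothing ties a library to a separate culture or host, and the p-values therefore measure the spread between libraries.

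Several signaling routes are known to link such myeloid cells with carcinoma cells. Interferons bind receptors that activate JAK kinases, which phosphorylate STAT factors. Together with IRF9, these enter the nucleus and bind short elements (interferon-stimulated response elements) upstream of antiviral genes. Oncostatin M (OSM), LIF and IL-6 act through receptors that share the gp130 chain and activate STAT3, which induces acute-phase genes and its own inhibitor SOCS3. Gr1+CD11b+ cells comprise granulocytic and monocytic cells, accumulate in tumor-bearing hosts, and are also called myeloid-derived suppressor cells.

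The depth of the 12 libraries, as the sum of reads placed on transcripts, ran from 24566183 to 31637755. Levels are given as CPM, counts scaled to library size. Where a gene had no count in a library, up to 3 counts (0.122 CPM in the shallowest library) could have been missed, a limit that covers counting error only. Estimated counts were summed to genes, and 12555 genes passed the expression filter of edgeR. Tu-Gr1+CD11b+–primed library 4 lay between the other primed libraries and the Spl-Gr1+CD11b+–primed libraries on the first principal components, and parental library 4 had the highest share of mitochondrial reads (6.73%). Of 12 granulocyte markers, 6, among them *Mpo* and *Ngp*, had a count of 0 in all 8 libraries, and the summed level of the list was between 149 and 185 CPM in primed and between 125 and 130 CPM in parental libraries, nearly all of it *Mmp9*, which 4T1 cells express themselves. Of 9 leukocyte markers the list sum was 242 to 269 CPM against 197 to 226 CPM, with most of it from *Itgb2* and with *Tyrobp* at 0 in all 8. The epithelial list (*Epcam*, *Cdh1* and keratins) summed to between 1880 and 2308 CPM in primed and between 2649 and 3956 CPM in parental libraries. Macrophage markers summed to 22.9 to 24.2 CPM against 17.4 to 21.1 CPM, with 6 of 11 at 0 in all 8 libraries, markers of fibroblasts and endothelium to 76.8 to 98.9 CPM against 43.1 to 56.4 CPM, nearly all from *Pdgfra*, and lymphocyte markers summed to at most 0.843 CPM in these 8 libraries. Of these markers of other cell types, *Mmp9*, *Itgb2*, *Pdgfra*, *S100a8*, *Mrc1* and *Vwf* were called higher in primed cells and *Lcp1* lower. The macrophage receptor *Mrc1* was at 3.51, 4.0001, 3.57 and 3.54 CPM against 2.22, 1.98, 1.93 and 1.48 CPM (log2 fold change 0.94, adjusted p = 5.37e-04), and the granulocyte gene *S100a8* at 2.91, 3.84, 2.94 and 1.63 CPM against 2.09, 1.73, 1.80 and 1.72 CPM with overlap (log2 fold change 0.62, adjusted p = 0.0345). The call of *S100a8* was lost without any 1 of primed libraries 1 to 3 or parental libraries 2 to 4 (adjusted p 0.0657 to 0.131), that of *Vwf* under most alternatives, and that of *Lcp1* without primed library 2 or parental library 1 (adjusted p = 0.054 and 0.0617). The part of other cells in the results below was not tested beyond these values. In bulk RNA, fewer cells that use a gene and less RNA per cell cannot be told apart.

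Priming with tumor Gr1+CD11b+ cells moved most of the transcriptome by small steps and a few gene groups by large ones. In the quasi-likelihood test of edgeR, which gives the adjusted p-values (Benjamini-Hochberg) below, 3919 of the 12555 genes (31.2%) passed upward and 3515 (28.0%) downward relative to parental cells at 0.05. Among the genes called, the median change was 1.45-fold for the higher and 1.30-fold for the lower genes. Changes of more than 1 on the log2 scale were uneven in direction, with 866 genes (6.90%) higher and 83 (0.661%) lower. The 4 primed libraries lay wholly above the 4 parental ones in 3594 genes (28.6%) and wholly below them in 3372 (26.9%). Against Spl-Gr1+CD11b+–primed cells, 585 genes (4.66%) were higher and 373 (2.97%) lower. Spl-Gr1+CD11b+–primed cells differed from the same parental libraries in 3225 genes upward (25.7%) and 2828 downward (22.5%). The comparisons share libraries, so their values are given side by side below and are not independent.

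**Figure D1:**
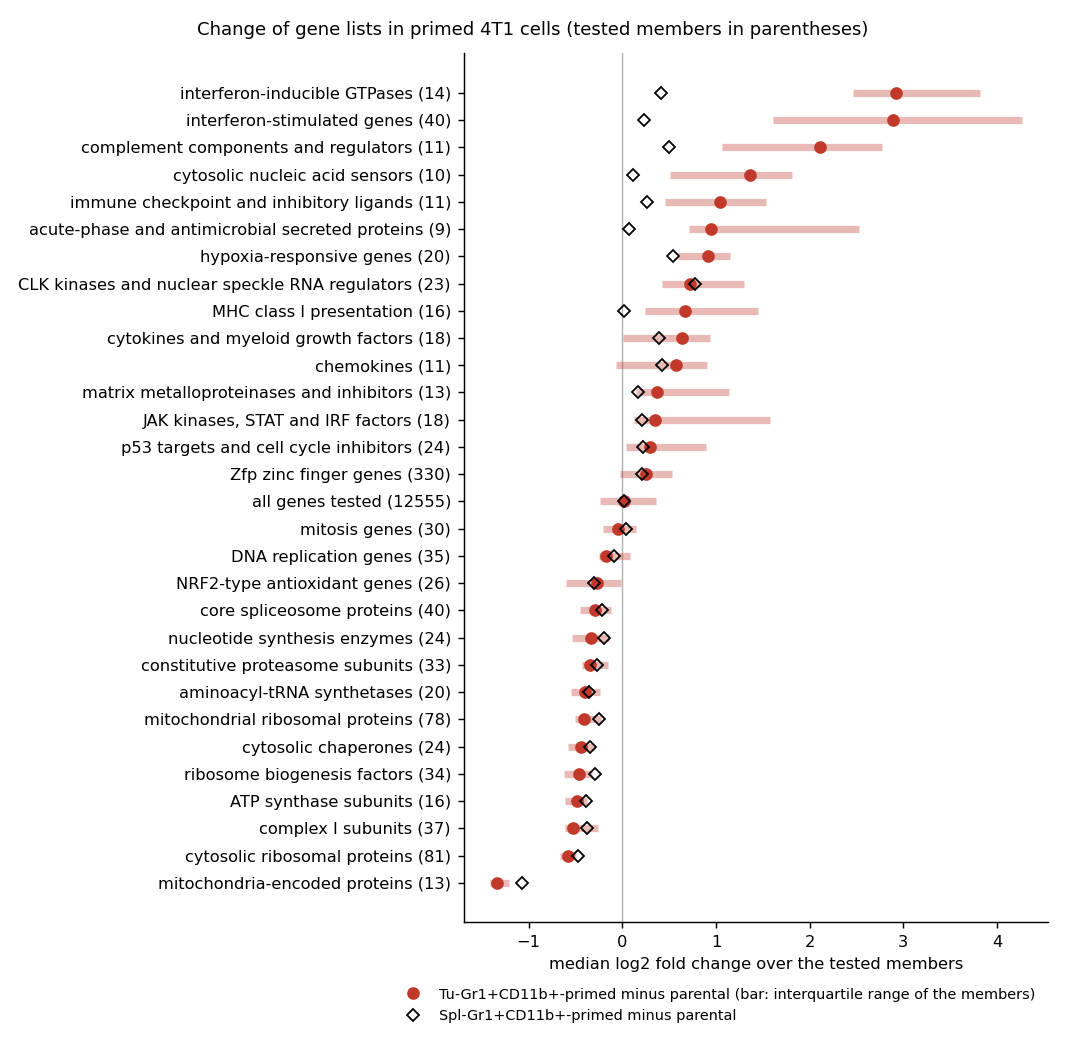
Median log2 fold change over the tested members of gene lists and over all genes tested, with the number of tested members in parentheses. Filled circles give Tu-Gr1+CD11b+–primed minus parental 4T1 cells with the interquartile range of the members as a bar, and open diamonds give Spl-Gr1+CD11b+–primed minus parental cells. Interferon-stimulated genes and interferon-inducible GTPases sit near 2.9 in Tu-Gr1+CD11b+–primed cells and below 0.42 in Spl-Gr1+CD11b+–primed cells. Nucleic acid sensors (1.36) and MHC class I presentation genes (0.67) sit lower in Tu-Gr1+CD11b+–primed cells. The ribosomal protein, respiratory chain and mitochondria-encoded lists sit below 0 in both.

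Interferon-stimulated genes rose together. All 40 tested members of a list of such genes were higher in Tu-Gr1+CD11b+–primed cells, against 31.2% of all genes, with log2 fold changes from 0.28 to 8.85 (median 2.89). In 37 of them the groups did not overlap, beside 28.6% of all genes. With a filter on a mean of at least 10 counts, 37 members were called higher. Before their values, the proximal promoters of 5 members are shown, because they hold the letters of the interferon-stimulated response element. They are the members with the smallest p whose window of 250 bases before to 50 bases after the start site (RefSeq, GRCm38.p6) holds TTTC and TTTC separated by a pair of bases, on either strand. Capitals mark each match, read on the strand of the gene, so that GAAA with GAAA is the reverse of the motif.

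Ddx60 (chr8:61927837-61928136, plus strand): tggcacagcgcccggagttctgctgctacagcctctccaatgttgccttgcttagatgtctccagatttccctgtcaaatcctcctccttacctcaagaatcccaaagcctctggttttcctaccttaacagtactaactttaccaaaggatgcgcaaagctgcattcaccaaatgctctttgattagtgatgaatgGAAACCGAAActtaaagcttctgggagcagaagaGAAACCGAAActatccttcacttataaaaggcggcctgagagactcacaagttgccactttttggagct

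Oas1g (chr5:120887564-120887863, minus strand): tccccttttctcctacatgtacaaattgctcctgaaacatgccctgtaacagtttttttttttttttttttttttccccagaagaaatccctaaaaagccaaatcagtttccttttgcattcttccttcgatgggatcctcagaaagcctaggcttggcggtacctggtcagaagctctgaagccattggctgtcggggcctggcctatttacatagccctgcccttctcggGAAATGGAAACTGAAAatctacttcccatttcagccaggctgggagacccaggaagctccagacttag

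Oas1a (chr5:120907476-120907775, minus strand): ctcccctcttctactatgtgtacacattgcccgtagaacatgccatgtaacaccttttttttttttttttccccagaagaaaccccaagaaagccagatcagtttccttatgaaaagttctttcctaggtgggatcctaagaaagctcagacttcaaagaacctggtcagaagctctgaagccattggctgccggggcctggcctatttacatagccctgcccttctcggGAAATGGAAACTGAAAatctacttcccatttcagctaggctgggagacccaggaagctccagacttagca

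Oas3 (chr5:120777610-120777909, minus strand): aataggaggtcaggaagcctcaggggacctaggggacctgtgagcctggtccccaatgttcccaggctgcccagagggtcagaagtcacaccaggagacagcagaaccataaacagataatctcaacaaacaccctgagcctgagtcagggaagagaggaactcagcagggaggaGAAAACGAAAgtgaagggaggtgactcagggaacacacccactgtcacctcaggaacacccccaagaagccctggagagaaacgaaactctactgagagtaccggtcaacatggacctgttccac

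Trim30a (chr7:104465144-104465443, minus strand): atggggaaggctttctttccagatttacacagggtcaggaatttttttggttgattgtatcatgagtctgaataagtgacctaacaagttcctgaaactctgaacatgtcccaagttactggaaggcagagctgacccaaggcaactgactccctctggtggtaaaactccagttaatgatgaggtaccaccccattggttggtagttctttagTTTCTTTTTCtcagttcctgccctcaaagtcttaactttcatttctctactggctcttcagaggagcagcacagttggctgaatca

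The *Ddx60* window held the element at 53 and at 19 bases before the start site and the *Oas1a* and *Oas1g* windows each held a pair of overlapping copies. Over the list, 13 of the 29 interferon-stimulated genes with a promoter in the table held the element (44.8%), as did 8 of 9 interferon-inducible GTPases (88.9%) and 5 of 13 MHC class I presentation genes (38.5%), against 356 of 9539 tested genes (3.73%) and 3.44% of all 32851 listed promoters. Another element, TTCNNNGAA, bound by STAT dimers, stood in 6 of the 29 (20.7%), in 5 of 9 interferon-inducible GTPases (55.6%) and in 1 of 13 MHC class I presentation genes (7.69%), against 8.46% of tested genes. A match describes the letters of a window and not binding.

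*Ddx60* codes for a helicase that assists RNA sensing. It reached 21.9, 16.9, 14.5 and 5.796 CPM in primed libraries 1 to 4 and 0.539, 0.535, 0.8805 and 0.3197 CPM in parental libraries 1 to 4, and the groups were far apart (log2 fold change 4.696, SE 0.42, adjusted p = 1.11e-06). The oligoadenylate synthetases make the messenger that activates RNase L. *Oas1a* was at 52.8, 37.4, 30.5 and 10.8 CPM against 1.85, 1.73, 2.05 and 2.48 CPM (log2 fold change 4.02, SE 0.39, adjusted p = 2.20e-06). *Oas3* was at 25.02, 15.8, 12.5 and 4.13 CPM against 0.438, 0.494, 0.671 and 0.559 CPM (log2 fold change 4.73, SE 0.49, adjusted p = 3.90e-06). *Trim30a*, a tripartite motif protein gene, was at 56.5, 40.3, 38.4 and 15.4 CPM against 4.79, 5.44, 5.12 and 5.67 CPM (log2 fold change 2.84, SE 0.31, adjusted p = 4.85e-06). In all of these genes primed library 4 was the lowest primed library and still stood above every parental one. *Oas1a* and *Oas1g* are close copies, and the division of reads between them is uncertain. *Oas2* and *Mx2*, an antiviral GTPase, were almost silent in parental cells. Over the 4 libraries of each group *Oas2* had 730 counts against 1 (ratio 674, 95% counting interval from 121 to 26661) and *Mx2* 420 against 3 (ratio 129, interval from 43.9 to 629). Neither could pass the filter through parental cells, so their calls add no evidence to the count of members that rose.

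*Ifi44*, an antiviral gene of the cytoplasm, had 110.5, 62.2, 50.3 and 12.4 CPM in the primed and 0.674, 0.865, 1.13 and 1.28 CPM in the parental libraries (log2 fold change 5.91, SE 0.59, adjusted p = 2.80e-06), with the primed libraries in the same order from 1 down to 4 as for *Ddx60*. *Irf7*, the transcription factor that amplifies interferon production, was at 66.997, 43.9, 36.7 and 12.98 CPM against 1.48, 1.52, 1.93 and 1.998 CPM (log2 fold change 4.54, SE 0.42, adjusted p = 1.55e-06). *Usp18*, which removes ISG15 from proteins and restrains the interferon receptor, was at 22.9, 14.8, 9.402 and 2.12 CPM against 0.539, 0.247, 0.545 and 0.2797 CPM (log2 fold change 4.899, SE 0.64, adjusted p = 2.24e-05). *Zbp1*, a sensor of Z-form nucleic acid, reached 17.96, 12.1, 9.72 and 2.22 CPM against 0.337, 0.247, 0.168 and 0.3197 CPM (log2 fold change 5.25, SE 0.58, adjusted p = 6.30e-06). These 4 genes had no overlap between the groups, and their Spl-Gr1+CD11b+–primed means (1.23 ± 0.149, 1.99 ± 0.375, 0.432 ± 0.194 and 0.532 ± 0.131 CPM, SD of 4 libraries) were not called against parental cells. *Ifi27*, *Rtp4* and *Xaf1* rose by 2.93, 4.28 and 3.89 on the log2 scale. Among the 40 genes, 39 were also higher than in Spl-Gr1+CD11b+–primed cells (background 4.66%), by a median of 2.54.

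The tested interferon-inducible GTPases, which attack the vacuoles of intracellular pathogens, all rose as well (14 of 14 tested, 17 listed, median 2.92), against 31.2% of all genes. With a filter on a mean of at least 10 counts, 13 were called higher. *Irgm2* was at 38.5, 25.9, 22.9 and 8.33 CPM against 1.95, 1.57, 2.64 and 2.04 CPM (log2 fold change 3.54, SE 0.37, adjusted p = 3.91e-06) and *Igtp* at 22.001, 16.5, 11.4 and 6.07 CPM against 1.75, 1.81, 1.05 and 1.68 CPM (log2 fold change 3.14, SE 0.33, adjusted p = 4.52e-06). The guanylate-binding proteins rose too, *Gbp9* from 5.29, 7.17, 5.07 and 7.83 to 63.2, 51.8, 51.3 and 27.04 CPM (log2 fold change 2.93, SE 0.24, adjusted p = 5.20e-07) and *Gbp2* by 1.27 on the log2 scale (adjusted p = 5.64e-05). *Tgtp2* had 83 counts in the primed libraries and 0 in the parental ones, at least 25.6-fold higher when 3 counts are set for the parental group as a whole. It could not pass the filter through parental cells, so its call adds no evidence to the count above. The members of this family resemble each other in sequence, and counts of single members are uncertain for that reason.

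Genes that present peptides on MHC class I rose in 14 of 16 cases (median 0.67), against 31.2% of all genes. Of these genes, 15 were higher than in Spl-Gr1+CD11b+–primed cells (background 4.66%). The classical heavy chains *H2-K1* and *H2-D1* and the light chain *B2m* rose modestly, by 0.36, 0.24 and 0.39 on the log2 scale (adjusted p = 4.37e-04, 0.00443 and 0.00376). *H2-T23*, the nonclassical ligand of NKG2A on natural killer cells, rose more, from 13.3, 14.004, 12.3 and 13.8 to 59.5, 49.1, 41.6 and 29.8 CPM (log2 fold change 1.75, SE 0.17, adjusted p = 2.02e-06). *Nlrc5*, the transactivator of class I genes, was at 50.7, 46.2, 48.9 and 38.002 CPM against 10.4, 13.4, 9.98 and 6.79 CPM (log2 fold change 2.18, SE 0.16, adjusted p = 2.24e-07), and it was higher in Spl-Gr1+CD11b+–primed cells too (26.9 ± 3.398 CPM). The peptide transporter *Tap1* rose by 1.43 and the immunoproteasome subunit *Psmb8* by 1.101 on the log2 scale, while *Psmb10*, another immunoproteasome subunit, was at 14.8 ± 1.96 CPM against 16.05 ± 2.08 CPM with overlapping groups (adjusted p = 0.412).

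Most sensors of cytosolic nucleic acid rose. *Ddx58*, which encodes the RNA sensor RIG-I, rose from 32.4, 33.8, 34.3 and 31.8 to 151, 113, 104 and 60.2 CPM (log2 fold change 1.697, SE 0.19, adjusted p = 7.92e-06). *Ifih1*, which encodes the RNA sensor MDA5, rose from 10.9, 10.8, 10.7 and 8.75 to 53.8, 41.3, 35.1 and 18.6 CPM (log2 fold change 1.85, SE 0.24, adjusted p = 2.14e-05). Their shared adaptor *Mavs* was slightly lower, at 33.8 ± 3.85 CPM against 39.8 ± 1.98 CPM, with overlapping groups (log2 fold change -0.23, SE 0.07, adjusted p = 0.0131). In the DNA branch, *Cgas* was higher by 0.43 (adjusted p = 0.00639) with overlapping groups, and *Tmem173*, which encodes STING, was at 55.7 ± 3.06 CPM against 52.3 ± 2.82 CPM (adjusted p = 0.189). In all, 8 of 10 sensors rose and 1 fell, beside 31.2% and 28.0% of all genes.

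The factors that carry the interferon signal rose with its targets. *Irf9* was at 62.2, 53.1, 42.2 and 27.8 CPM in the primed and 3.91, 4.28, 4.53 and 3.64 CPM in the parental libraries (log2 fold change 3.502, SE 0.21, adjusted p = 7.01e-08). *Stat2* was at 81.3, 62.6, 59.2 and 32.4 CPM against 9.98, 10.8, 9.27 and 8.83 CPM (log2 fold change 2.598, SE 0.21, adjusted p = 4.31e-07). Both were lowest in primed library 4 without overlap. *Irf1*, which also mediates signals of interferon-γ and NF-κB, was even across the primed libraries (50.8, 47.2, 49.5 and 50.6 CPM, against 24.2, 27.8, 25.99 and 29.7 CPM in parental cells, log2 fold change 0.88, SE 0.06, adjusted p = 2.28e-07). The kinases moved in different directions. *Jak3* rose by 1.62, *Tyk2* by 0.42 and *Jak2* by 0.27 on the log2 scale (adjusted p = 2.23e-07, 0.0026 and 0.013), and *Jak1* fell from 211 ± 2.93 to 184 ± 4.84 CPM (adjusted p = 0.014). Over the list of JAK kinases, STAT and IRF factors, 12 of 18 rose and 2 fell, beside 31.2% and 28.0% of all genes.

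The ligands themselves were nearly absent from the 4T1 cells. None of the 8 listed interferon genes passed the filter. *Ifnb1* had a single count in primed library 2 and 0 in the other primed and in the parental libraries, *Ifna4* a single count in primed library 4, and *Ifng*, *Ifnl2* and *Ifnl3* had 0 counts in all 8. Among the receptors, *Ifnar1*, a chain of the type I interferon receptor, was higher in every primed library (79.98, 78.8, 81.5 and 81.1 CPM against 61.03, 59.6, 52.03 and 43.96 CPM, log2 fold change 0.57, SE 0.08, adjusted p = 5.79e-05), and *Ifngr1* was at 29.4 ± 1.23 CPM against 27.3 ± 1.76 CPM with overlapping groups (adjusted p = 0.167).

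A gradient among the primed libraries accompanied the interferon lists. The list score, which is the mean over members of log2 CPM minus the parental mean, was 3.51, 3.03, 2.78 and 1.74 for interferon-stimulated genes in primed libraries 1 to 4, and 1.24, 1.09, 0.96 and 0.62 for MHC class I presentation. Hypoxia-responsive genes had scores of 0.87, 0.87, 0.84 and 0.99, highest in library 4. Without library 4, the comparison with parental cells gave 3760 genes upward and 3382 downward, and that with Spl-Gr1+CD11b+–primed cells 662 and 531. Leaving out any single library kept at least 38 of the 40 interferon-stimulated genes called higher.

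**Figure D2:**
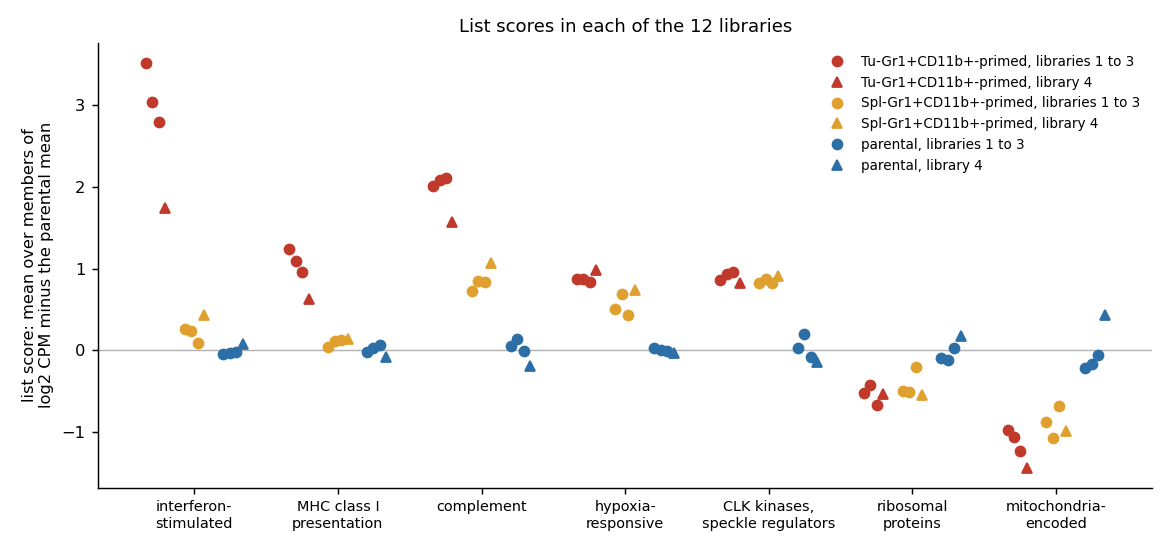
List scores in each library, as the mean over the tested members of log2 CPM minus the parental mean (vertical axis), for 7 gene lists. Each point is a library, in red for Tu-Gr1+CD11b+–primed, in yellow for Spl-Gr1+CD11b+–primed and in blue for parental 4T1 cells, and triangles mark library 4 of each group. Primed library 4 is lowest of the primed libraries for the interferon, MHC class I and complement lists and highest for the hypoxia list.

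Some genes of surface proteins rose as well, measured here as RNA only. *Ly6a*, which encodes the stem cell antigen SCA1, was at 12.5, 10.8, 9.72 and 3.12 CPM in the primed and 0.539, 0.659, 1.01 and 0.999 CPM in the parental libraries (log2 fold change 3.503, SE 0.37, adjusted p = 4.40e-06), again lowest in primed library 4. *Muc1*, a membrane mucin of the apical surface, was at 7.06, 7.07, 8.77 and 3.401 CPM against 0.506, 0.535, 0.545 and 0.4396 CPM (log2 fold change 3.69, SE 0.30, adjusted p = 5.27e-07). It was the only listed mucin that passed the filter. *Itgb3*, which encodes CD61, rose from 30.1, 30.1, 33.6 and 26.98 to 81.3, 76.3, 85.9 and 80.7 CPM (log2 fold change 1.43, SE 0.12, adjusted p = 5.34e-07). Other markers used to define mammary stem cells did not pass the test. *Cd24a* (587 ± 38.2 CPM against 578 ± 12.1 CPM, adjusted p = 0.741), *Cd44* (584 ± 20.6 CPM against 575 ± 45.6 CPM, adjusted p = 0.794) and *Itga6*, which encodes CD49f (346 ± 10.1 CPM against 346 ± 47.4 CPM, adjusted p = 0.994) overlapped between the groups. *Epcam* and *Procr* overlapped as well (log2 fold change 0.11 and 0.11). Thus 2 of 9 stem cell surface markers rose and none fell, against 31.2% and 28.0% of all genes.

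Ligands that restrain immune cells rose in 9 of 11 cases (median 1.04), against 31.2% of all genes. *Lgals9*, which encodes galectin-9, was at 50.6, 35.7, 29.4 and 16.1 CPM against 8.73, 7.62, 8.09 and 7.23 CPM (log2 fold change 2.05, SE 0.25, adjusted p = 1.46e-05). *Cd274*, which encodes PD-L1, was low in all libraries but did not overlap, with 1.14, 0.854, 0.664 and 1.04 CPM against 0.337, 0.371, 0.335 and 0.4396 CPM (log2 fold change 1.31, SE 0.25, adjusted p = 5.64e-04). *Nt5e*, which encodes the ectonucleotidase CD73 that makes adenosine, rose from 135, 148, 130.1 and 113 to 279, 269, 290.2 and 259 CPM (log2 fold change 1.06, SE 0.08, adjusted p = 2.21e-07). *Cd47*, the signal that blocks phagocytosis, rose by 0.54 (adjusted p = 6.28e-04), and the B7 family member *Cd276* fell by 1.15-fold (adjusted p = 0.00589). *Lgals9* and *H2-T23* were higher than in Spl-Gr1+CD11b+–primed cells too (log2 fold change 2.21 and 1.402), whereas *Cd274* was not called there (adjusted p = 0.0756).

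The receptor gene of OSM and some of the genes linked to STAT3 rose as well. *Osmr* was at 73.1, 71.3, 83.8 and 50.6 CPM in the primed libraries, at 11.9, 12.6, 12.6 and 11.9 CPM in the parental ones and at 16.6, 17.98, 13.8 and 19.3 CPM in the Spl-Gr1+CD11b+–primed ones (log2 fold change 2.51, SE 0.14, adjusted p = 3.97e-08 against parental cells). The related receptor *Lifr* rose less (15.8, 15.5, 18.2 and 13.6 CPM against 10.4, 10.1, 7.71 and 5.36 CPM, log2 fold change 0.91, SE 0.20, adjusted p = 0.00124). *Il6ra* was at 45.5, 40.9, 43.97 and 40.05 CPM against 29.1, 38.8, 23.8 and 21.5 CPM (log2 fold change 0.59, SE 0.14, adjusted p = 0.00232), and *Il6st*, which encodes the shared gp130 chain, fell from 314, 307, 301 and 299.6 to 247, 231, 264 and 234 CPM (log2 fold change -0.32, SE 0.09, adjusted p = 0.00584). The specific chains shown here rose and the shared one fell, a fall that lost its call with transcript length offsets. Over the list of IL-6 family and interferon receptors, 6 of 11 rose, 1 fell and 4 were not called. Of all genes 31.2% rose and 28.0% fell. *Osm* had 0 counts in all 4 primed libraries and *Il6* between 3 and 9 counts, and neither passed the filter.

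The promoter of *Osmr* was set for display whatever its matches, as was that of *Ly6a*, for which none was listed. The *Osmr* window held no match to TTCNNNGAA, TTGCNNAA or the paired TTTC element. These letters stood in 8.46%, 9.84% and 3.73% of tested genes with a promoter, so a window without them is common.

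Osmr (chr15:6874264-6874563, minus strand): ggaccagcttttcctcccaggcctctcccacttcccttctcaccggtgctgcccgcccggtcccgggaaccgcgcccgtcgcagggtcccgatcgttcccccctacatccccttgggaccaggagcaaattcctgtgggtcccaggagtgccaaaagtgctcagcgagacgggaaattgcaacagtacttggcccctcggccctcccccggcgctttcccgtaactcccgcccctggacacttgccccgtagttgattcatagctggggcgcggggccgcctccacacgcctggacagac

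*Stat3* itself rose from 60.1, 64.9, 53.2 and 56.9 to 168, 163, 174 and 128 CPM (log2 fold change 1.43, SE 0.09, adjusted p = 9.18e-08) and the feedback inhibitor *Socs3* from 18.98, 20.3, 19.4 and 22.1 to 46.02, 51.2, 54.9 and 37.97 CPM (log2 fold change 1.24, SE 0.10, adjusted p = 3.95e-07), each without overlap and each lowest in primed library 4. *Cebpd*, a transcription factor of the acute phase, was at 4.76, 4.43, 5.56 and 2.71 CPM against 1.35, 1.44, 1.09 and 1.44 CPM (log2 fold change 1.71, SE 0.22, adjusted p = 2.15e-05). In a wider list of STAT3 targets and SOCS genes, 10 of 22 rose, 1 fell and 11 were not called (median 0.19). Of all genes 31.2% rose and 28.0% fell. The members that fell numbered 2 without parental library 1 or 3 and 4 without Spl-Gr1+CD11b+–primed library 3.

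Genes for secreted proteins of the acute phase rose in 8 of 9 tested cases (20 listed), against 31.2% of all genes. Of these members, 8 were higher than in Spl-Gr1+CD11b+–primed cells (background 4.66%). *Steap4*, an iron reductase induced in inflammation, had the largest fold change of the list, with 50.99, 51.5, 54.8 and 36.5 CPM against 5.22, 6.84, 3.98 and 4.68 CPM (log2 fold change 3.22, SE 0.18, adjusted p = 3.97e-08). *Saa3*, serum amyloid A3, rose from 0.472, 0.7002, 0.545 and 0.559 to 3.83, 3.301, 3.81 and 2.19 CPM (log2 fold change 2.53, SE 0.24, adjusted p = 1.96e-06). *Lcn2*, the siderophore-binding lipocalin, was at 1010.3, 1075, 1069 and 824 CPM against 533, 508, 633 and 758 CPM (log2 fold change 0.71, SE 0.12, adjusted p = 1.72e-04). *Slpi*, an inhibitor of leukocyte proteases, and *Cp*, which encodes ceruloplasmin, rose by 0.82 and 0.57 on the log2 scale (adjusted p = 7.86e-06 and 5.57e-05). *Lcn2* was instead below its parental level in Spl-Gr1+CD11b+–primed cells (467 ± 38.1 CPM, log2 fold change -0.38, adjusted p = 0.0162).

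Complement genes rose in 10 of 11 tested cases (17 listed), against 31.2% of all genes, with a median of 2.11. In Spl-Gr1+CD11b+–primed cells 5 were likewise above parental levels (background 25.7%). The initiating proteases *C1s1* and *C1ra* were at 7.77, 8.66, 9.02 and 5.87 CPM against 0.843, 1.15, 0.713 and 0.5195 CPM (log2 fold change 3.27, SE 0.21, adjusted p = 1.08e-07) and at 6.49, 8.08, 6.57 and 4.69 CPM against 1.52, 1.94, 1.47 and 1.04 CPM (log2 fold change 2.11, SE 0.21, adjusted p = 2.93e-06). *C4b* was at 4.05, 5.01, 4.299 and 1.805 CPM against 0.202, 0.0824, 0.126 and 0.1199 CPM (log2 fold change 4.76, SE 0.45, adjusted p = 1.73e-06), and *Cfb*, factor B of the alternative pathway, at 2.41, 1.71, 1.96 and 1.18 CPM against 0.303, 0.0412, 0.252 and 0.2797 CPM (log2 fold change 3.003, SE 0.39, adjusted p = 2.06e-05). All of these were low in parental cells and did not overlap between the groups. Regulators rose too, with *Clu* (clusterin) higher by 0.75 and *Cd46* by 2.54 on the log2 scale (adjusted p = 1.02e-06 and 1.79e-05). The central component *C3* was the member not called, at 428 ± 17.9 CPM against 450.1 ± 29.8 CPM (adjusted p = 0.472). Of the promoters of complement genes, 4 of 6 held TTGCNNAA, a motif of C/EBP factors (66.7%, against 9.84% of tested genes).

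**Figure D3:**
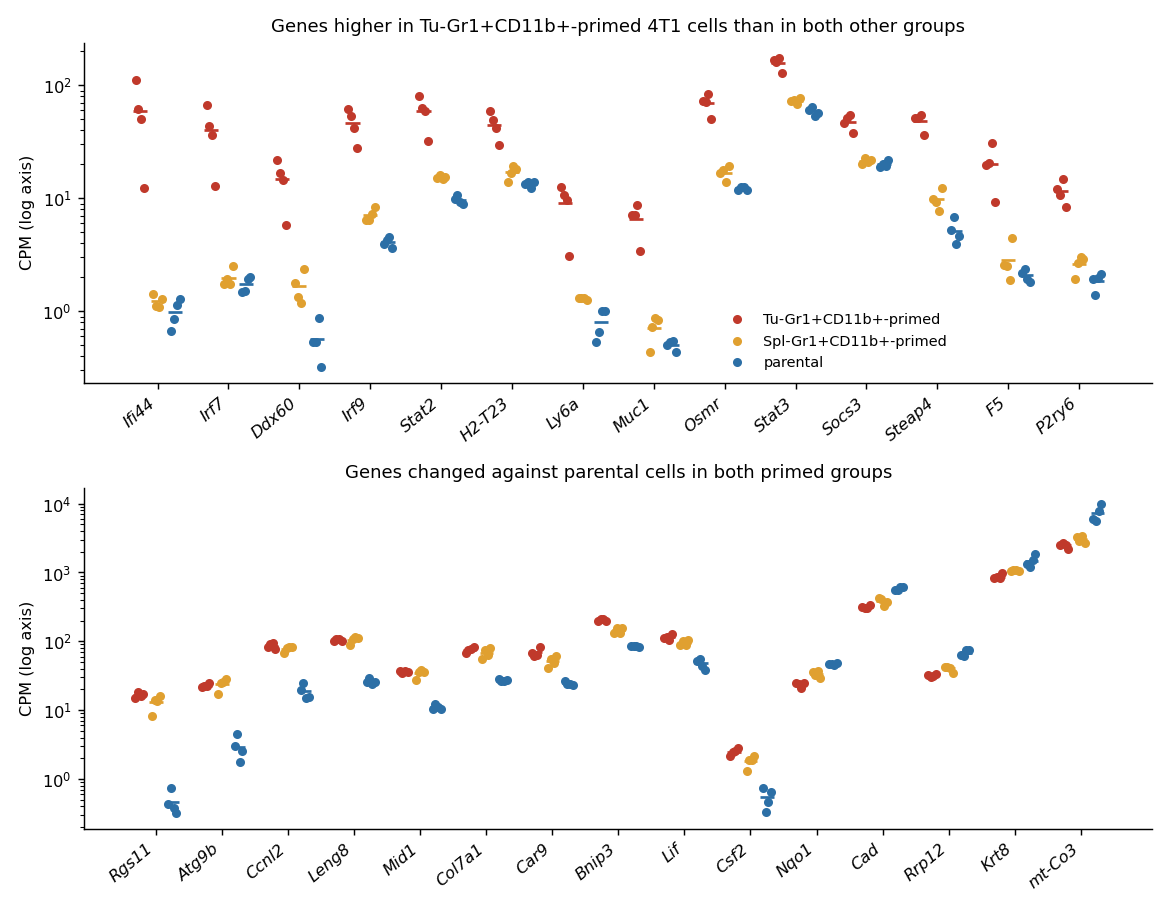
CPM of named genes in each library on a log axis, with Tu-Gr1+CD11b+–primed libraries in red, Spl-Gr1+CD11b+–primed in yellow and parental in blue, and a short line at each group mean. In the upper panel the red points stand above both other groups, as for *Osmr* between 50.6 and 83.8 CPM, and in the lower panel red and yellow points stand on the same side of the blue ones.

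Cytokines and growth factors for myeloid cells rose in 10 of 18 cases and fell in 3, beside 31.2% and 28.0% of all genes. *Csf3*, which encodes the granulocyte factor G-CSF, rose from 139, 137, 129 and 112 to 243, 250.2, 245 and 223 CPM (log2 fold change 0.89, SE 0.07, adjusted p = 6.11e-07). *Csf2*, which encodes GM-CSF, rose from 0.741, 0.3295, 0.461 and 0.639 to 2.16, 2.49, 2.55 and 2.81 CPM (log2 fold change 2.18, SE 0.25, adjusted p = 7.33e-06). *Lif*, a ligand of the gp130 receptors, rose from 52.3, 55.97, 43.5 and 38.8 to 112, 115, 105 and 128 CPM (log2 fold change 1.27, SE 0.10, adjusted p = 5.99e-07). The alarmins *Il33* and *Il1a* rose by 1.41 and 0.61 and the epithelial cytokine *Tslp* by 0.66 on the log2 scale (adjusted p = 1.38e-08, 1.52e-06 and 4.88e-07). *Tgfb1*, which encodes TGF-β1, fell from 95.1, 85.998, 111 and 147 to 64.7, 63.7, 69.2 and 68.3 CPM (log2 fold change -0.72, SE 0.12, adjusted p = 2.22e-04), and *Mif* and *Kitl* (stem cell factor) fell by 1.52-fold and 1.29-fold. Only 2 of the list were higher than in Spl-Gr1+CD11b+–primed cells, where *Csf2*, *Lif* and *Tslp* were likewise above parental levels (log2 fold change 1.71, 1.00 and 0.76).

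Among chemokines, 5 of 11 tested rose and 1 fell (31.2% and 28.0% of all genes), and against Spl-Gr1+CD11b+–primed cells none was higher and 1 was lower. Without primed library 4, 2 fell. The neutrophil attractants *Cxcl1* and *Cxcl5* rose from 81.6, 85.1, 79.1 and 72.3 to 135, 133, 131 and 139.7 CPM (log2 fold change 0.76, SE 0.08, adjusted p = 5.36e-06) and from 184, 186, 156 and 134 to 252, 256, 248 and 227 CPM (log2 fold change 0.57, SE 0.10, adjusted p = 3.24e-04). *Ccl2*, which attracts monocytes, rose by 0.74 and the interferon-inducible *Cxcl10* by 1.304 on the log2 scale (adjusted p = 8.12e-05 and 0.00103). *Cx3cl1*, the membrane-bound ligand of CX3CR1, fell from 103, 100.3, 111 and 108 to 73.2, 73.8, 67.3 and 85.3 CPM (log2 fold change -0.50, SE 0.07, adjusted p = 3.75e-05).

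NF-κB genes did not move as a block. The feedback inhibitor *Tnfaip3* (A20) rose from 53.2, 61.2, 48.6 and 40.2 to 93.3, 91.5, 89.7 and 106 CPM (log2 fold change 0.90, SE 0.10, adjusted p = 7.92e-06), while the subunits *Nfkb2* and *Rela* fell by 1.42-fold and 1.25-fold (adjusted p = 7.62e-05 and 3.07e-04). Over the list, 8 rose and 4 fell of 18, beside 31.2% of all genes higher and 28.0% lower. TNF family ligands and receptors rose in 8 of 12 cases and fell in 2. The death ligand *Tnfsf10* (TRAIL) had 3.83, 3.73, 2.48 and 1.32 CPM against 1.38, 0.906, 0.671 and 0.719 CPM (log2 fold change 1.603, SE 0.35, adjusted p = 0.00148), and primed library 4 lay within the parental range.

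Growth signaling lists were mixed, set against 31.2% of all genes higher and 28.0% lower. Of the AP-1 and immediate-early genes, 10 of 21 rose, among them *Fos* by 1.39 (adjusted p = 2.95e-05), while *Jund*, another AP-1 subunit, fell from 30.6, 26.3, 33.6 and 49.5 to 15.3, 13.9, 15.8 and 15.8 CPM (log2 fold change -1.200, SE 0.18, adjusted p = 5.85e-05). Of the EGF family, 7 of 11 rose and 1 fell. The EGF receptor ligand *Areg* (amphiregulin) rose from 47.6, 44.7, 41.3 and 34.6 to 73.1, 82.4, 70.6 and 62.2 CPM (log2 fold change 0.78, SE 0.10, adjusted p = 2.35e-05), and *Egf*, near the detection floor in parental cells, rose as well (log2 fold change 2.502, adjusted p = 5.99e-04). The receptor *Erbb2* fell by 1.195-fold (adjusted p = 0.00572). *Dusp6*, the phosphatase that reports ERK activity, rose by 0.61, within a MAPK feedback list that divided into 4 higher and 5 lower of 17, close to the shares of all genes. In the TGF-β and BMP list (8 higher and 4 lower of 20, with 2 lower without primed library 2) the inhibitors *Skil* and *Smad7* rose by 0.83 and 0.79 and the BMP target *Id2* fell by 1.48-fold. The WNT list had 4 higher and 8 lower of 24, with the ligand *Wnt10b* higher by 1.03 and *Wnt7b* lower by 1.35-fold. *Porcn*, the acyltransferase for WNT ligands, was higher by 1.38 over all its transcripts, whereas its protein-coding transcripts alone gave -1.57 and did not pass the test (adjusted p = 0.227). In the Notch list the ligand *Dll1* rose (0.91) and the receptor *Notch1* fell (-0.63).

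Genes of desmosomes and adherens junctions fell more often than they rose. Of that list, 8 of 13 fell and none rose, against 28.0% of all genes lower, and 5 fell without primed library 1 or without parental library 3. In Spl-Gr1+CD11b+–primed cells 6 were likewise below parental levels (background 22.5%). Of tight junction genes 4 rose and 5 fell of 15, and of keratins 1 rose and 3 fell of 10, beside 31.2% and 28.0% of all genes. The keratin *Krt19* was not called (log2 fold change 0.004, adjusted p = 0.983). *Perp*, a desmosomal membrane protein, fell from 106, 109, 112 and 107 to 63.4, 63.3, 59.1 and 62.4 CPM (log2 fold change -0.81, SE 0.06, adjusted p = 1.92e-07), *Pkp3* (plakophilin-3) by 1.55-fold, *Dsp* (desmoplakin) by 1.43-fold and *Cdh1* (E-cadherin) by 1.24-fold. *Krt8*, a keratin of simple epithelia, fell from 1337, 1202, 1537 and 1886 to 824, 863, 820.0 and 976 CPM (log2 fold change -0.78, SE 0.11, adjusted p = 4.49e-05), and its partner *Krt18* from 969.9, 898, 1135 and 1359.9 to 638, 663, 625 and 797 CPM (log2 fold change -0.68, SE 0.11, adjusted p = 1.59e-04), with the highest value in parental library 4. The intermediate filament of mesenchymal cells fell with them: *Vim* went from 2709, 2537, 3138 and 3545 to 1607, 1605, 1559.9 and 1732 CPM (log2 fold change -0.87, SE 0.09, adjusted p = 4.00e-06). A list of mesenchymal genes and regulators of epithelial-mesenchymal transition had 3 higher and 2 lower of 9 tested. Of the integrin subunits, *Itga2* rose by 0.60 beside *Itgb3*, whereas *Itgb7*, *Itgb4* and *Itga3* fell by 2.03-fold, 1.45-fold and 1.28-fold.

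Matrix-degrading and clotting genes rose in most cases. Of metalloproteinases and their inhibitors, 10 of 13 rose, against 31.2% of all genes. In Spl-Gr1+CD11b+–primed cells 5 of them were above parental levels (background 25.7%). *Mmp13*, a collagenase, was at 29.99, 35.3, 33.7 and 29.1 CPM against 7.58, 9.14, 5.62 and 3.28 CPM (log2 fold change 2.32, SE 0.20, adjusted p = 9.38e-07), *Mmp11* rose by 0.96, and the membrane-anchored inhibitor *Reck* by 1.695 on the log2 scale. Of the coagulation and plasminogen list, 10 of 14 rose. In Spl-Gr1+CD11b+–primed cells 11 were likewise above parental levels, and 2 were higher in Tu-Gr1+CD11b+–primed than in Spl-Gr1+CD11b+–primed cells (background 4.66%). *F5*, which encodes coagulation factor V, was at 19.8, 20.7, 30.9 and 9.301 CPM against 2.19, 2.39, 1.93 and 1.84 CPM (log2 fold change 3.27, SE 0.33, adjusted p = 3.07e-06), highest in primed library 3 and lowest in library 4. The plasminogen activators *Plau* and *Plat* rose by 0.59 and 0.75, and the inhibitor *Serpine2* by 0.63 (adjusted p = 5.75e-04, 5.14e-04 and 5.23e-06). Basement membrane genes divided. *Col7a1*, the collagen of anchoring fibrils, rose from 28.2, 26.4, 26.2 and 27.02 to 68.2, 74.2, 76.4 and 82.5 CPM (log2 fold change 1.48, SE 0.10, adjusted p = 1.92e-07), whereas the perlecan gene *Hspg2* and the type IV collagens *Col4a1* and *Col4a2* fell by 1.69-fold, 1.22-fold and 1.502-fold. *Tnc* (tenascin-C) rose by 0.81.

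Hypoxia-responsive genes rose in 19 of 20 cases (median 0.92), against 31.2% of all genes. Of the list, 11 were higher than in Spl-Gr1+CD11b+–primed cells (background 4.66%), where 18 were above parental levels (background 25.7%). *Car9*, the carbonic anhydrase used as a hypoxia marker, was at 67.2, 61.6, 64.1 and 83.8 CPM against 26.5, 24.2, 24.2 and 23.2 CPM (log2 fold change 1.496, SE 0.12, adjusted p = 4.08e-07). *Bnip3*, a mitophagy receptor, rose from 84.9, 84.2, 85.5 and 82.4 to 195, 213, 209 and 200.5 CPM (log2 fold change 1.28, SE 0.07, adjusted p = 2.32e-08). *Vegfa*, the vascular growth factor, rose from 56.8, 59.8, 52.7 and 57.1 to 109.9, 104, 104 and 109 CPM (log2 fold change 0.91, SE 0.08, adjusted p = 1.49e-06). None of the 3 overlapped, and *Car9* was highest in primed library 4. *Adm* (adrenomedullin), *Ndrg1*, *Plod2* (a lysyl hydroxylase) and *Pdk1*, which holds pyruvate back from mitochondria, rose by 1.92, 1.14, 1.16 and 0.95 on the log2 scale. The oxygen sensor *Egln1* was the member not called (112 ± 6.296 CPM against 105 ± 9.39 CPM, adjusted p = 0.207). The core of the hypoxia element, ACGTG, stood in 11 of 16 of their promoters (68.8%, against 29.1% of tested genes).

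Glycolytic genes did not follow as a group, set against 31.2% of all genes higher and 28.0% lower (7 higher and 9 lower of 22), and 5 were lower without primed library 2, primed library 3 or parental library 4. The isoenzymes *Eno2* and *Aldoc* rose, from 1.89, 1.94, 1.84 and 2.12 to 10.3, 12.3, 11.1 and 11.001 CPM (log2 fold change 2.52, SE 0.21, adjusted p = 7.40e-07) and by 1.42 on the log2 scale, whereas *Gapdh* fell from 2296, 2081, 2588 and 2913 to 1779, 1829.5, 1566 and 1806 CPM (log2 fold change -0.50, SE 0.09, adjusted p = 3.60e-04) and *Pkm* by 1.25-fold.

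Transcripts of mitochondria fell. The mitochondrial genome encodes the core subunits of the respiratory chain, and 11 of its 13 protein genes were lower in Tu-Gr1+CD11b+–primed cells (median -1.34, against 28.0% of all genes lower). *mt-Co3* was at 2546, 2637, 2484 and 2230.4 CPM against 6007, 5618, 7706 and 9936 CPM (log2 fold change -1.56, SE 0.15, adjusted p = 1.85e-06) and *mt-Nd1* at 2360.2, 2329.7, 2347 and 2181 CPM against 4852, 4986, 6638 and 9854 CPM (log2 fold change -1.51, SE 0.18, adjusted p = 9.91e-06). The parental libraries varied more than the primed ones, and parental library 4 was highest. As a share of reads, mitochondria-encoded transcripts held 2.53%, 2.46%, 2.26% and 2.09% in the primed and 4.24%, 4.27%, 4.81% and 6.73% in the parental libraries, a difference of means of -2.68 percentage points (exact two-sided permutation p = 0.0286, the smallest that 4 against 4 allows), and -2.11 without parental library 4. The Spl-Gr1+CD11b+–primed libraries were at 2.77 ± 0.273%, and 11 of the 13 protein genes were below parental levels there too. *mt-Nd6*, the protein gene on the other strand, was at 29.2 ± 9.89 CPM against 20.3 ± 5.36 CPM (adjusted p = 0.145) and *mt-Co2* at 1595 ± 809 CPM against 2674 ± 852 CPM (adjusted p = 0.0624), both with overlap.

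Nuclear genes of the respiratory chain fell by smaller amounts: 30 of 37 complex I subunits (median -0.53), 12 of 13 of complexes II and III, 9 of 11 of complex IV and all 16 of the ATP synthase (median -0.48). *Atp5b*, the catalytic β subunit, fell from 1736, 1606, 1803 and 1899 to 1242, 1225, 1168 and 1250.3 CPM (log2 fold change -0.53, SE 0.06, adjusted p = 1.05e-05) and *Ndufb10* of complex I from 48.3, 43.9, 58.2 and 64.3 to 32.5, 30.6, 32.3 and 31.4 CPM (log2 fold change -0.76, SE 0.11, adjusted p = 6.19e-05). No subunit of these lists rose, and 28.0% of all genes were lower. Of the enzymes of the tricarboxylic acid cycle and its branches, 14 of 21 fell, such as *Mdh2* by 1.58-fold, and *Idh1*, the cytosolic isocitrate dehydrogenase, rose by 0.37. None of the respiratory chain genes was called against Spl-Gr1+CD11b+–primed cells, in which 29 complex I and 16 ATP synthase genes were likewise below parental levels (background 22.5%).

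The machinery of translation fell in the same way. Of cytosolic ribosomal protein genes, 77 of 81 were lower (median -0.58), as were 64 of 78 mitochondrial ribosomal proteins (median -0.41), 19 of 20 aminoacyl-tRNA synthetases and 31 of 38 initiation and elongation factors. Of all genes 28.0% were lower. In Spl-Gr1+CD11b+–primed cells 75, 47, 17 and 30 members of these lists were likewise below parental levels (background 22.5%). *Rplp1*, of the ribosomal stalk, fell from 782, 706, 830.0 and 998 to 439, 426, 377 and 403 CPM (log2 fold change -1.01, SE 0.12, adjusted p = 7.92e-06). *Eef2*, the translocase of elongation, fell from 4247, 3897, 4962 and 5449 to 2642, 2593, 2581 and 3022 CPM (log2 fold change -0.78, SE 0.09, adjusted p = 1.15e-05). *Eif3b*, a subunit of the initiation factor that binds the small ribosomal subunit, fell by 1.82-fold. A single ribosomal protein gene, *Rps18*, was higher by 1.25 over all its transcripts, and its protein-coding transcripts alone were lower (-0.62, adjusted p = 0.0193). The helicase *Eif4a2* rose from 90.2, 114, 77.3 and 67.2 to 249.5, 270.4, 281 and 240.2 CPM (log2 fold change 1.58, SE 0.13, adjusted p = 4.64e-07), with 2.13 over protein-coding transcripts alone.

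Factors that build ribosomes fell in 31 of 34 cases (median -0.46), against 28.0% of all genes. Of these factors, 12 were also lower than in Spl-Gr1+CD11b+–primed cells (background 2.97%). *Rrp12* fell from 63.1, 60.3, 73.9 and 75.5 to 32.4, 30.7, 30.9 and 34.01 CPM (log2 fold change -1.09, SE 0.09, adjusted p = 3.76e-07), and *Bysl*, which matures the small subunit, by 1.86-fold. *Pwp2* and *Nol6*, processing factors of the small subunit that the list did not hold and that were among the genes with the smallest p, fell by 1.51-fold and 1.56-fold. *Gnl3* (nucleostemin) was higher by 0.28 over all transcripts and did not pass the test over protein-coding ones (-0.00, adjusted p = 0.967).

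Genes for protein folding and turnover fell too, with 20 of 24 cytosolic and mitochondrial chaperones lower and 25 of 33 constitutive proteasome subunits, in contrast to the immunoproteasome gene *Psmb8*. In Spl-Gr1+CD11b+–primed cells 18 of these chaperones and 22 of these subunits were likewise below parental levels (background 22.5%). *Hspd1*, the mitochondrial chaperonin, fell from 1118, 1089.8, 1168 and 1073 to 693, 673, 670.5 and 672 CPM (log2 fold change -0.72, SE 0.06, adjusted p = 1.13e-06) and the heat-inducible *Hspa1b* by 2.17-fold. Chaperones of the endoplasmic reticulum divided into 7 higher and 6 lower of 23, and 4 were higher without primed library 2 or 3. Autophagy genes did as well (10 and 9 of 30). Both lists were close to the 31.2% higher and 28.0% lower of all genes, although *Atg9b*, a lipid scramblase of the autophagosome, rose from 2.999, 4.53, 1.76 and 2.56 to 21.6, 22.2, 22.4 and 24.8 CPM (log2 fold change 2.94, SE 0.21, adjusted p = 1.92e-07) and the cargo receptor *Sqstm1* fell by 1.48-fold. Lysosomal genes were more often higher (14 of 29) than lower (6).

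Of the nucleotide synthesis enzymes, 18 of 24 fell, led by *Cad*, which starts pyrimidine synthesis (318, 300.3, 303 and 338 CPM against 565, 552, 613 and 607 CPM, log2 fold change -0.89, SE 0.07, adjusted p = 6.51e-07), and *Gart* of the purine pathway (114, 113, 108 and 119 CPM against 193, 176, 202 and 209 CPM, log2 fold change -0.78, SE 0.06, adjusted p = 3.75e-07). *Fasn*, fatty acid synthase, fell from 1149, 1072, 1298 and 1416 to 677, 643, 683 and 702 CPM (log2 fold change -0.87, SE 0.10, adjusted p = 8.24e-06) and *Acaca*, which makes its substrate, by 1.87-fold, with 7 of 17 genes of that list lower and none higher. Of cholesterol genes, 9 of 23 fell, and *Sc5d* rose by 0.67. These counts stand beside 28.0% of all genes lower. In Spl-Gr1+CD11b+–primed cells 16 nucleotide, 7 fatty acid and 8 cholesterol genes were likewise below parental levels (background 22.5%). In the amino acid list (8 higher and 13 lower of 25), *Phgdh* of serine synthesis and the transporter *Slc7a5* fell by 1.79-fold and 1.64-fold, whereas *Atf4*, the factor that induces such genes, rose by 0.34 and *Slc7a11*, the cystine transporter, by 0.48 with overlapping groups (adjusted p = 0.00428 and 0.0116).

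Antioxidant genes of the NRF2 type fell in 17 of 26 cases and rose in 6, beside 28.0% and 31.2% of all genes. Without primed library 1 the higher members numbered 2, and without primed library 2, primed library 3 or parental library 3 they numbered 3. In Spl-Gr1+CD11b+–primed cells 17 members were likewise below parental levels (background 22.5%). Between the primed groups 4 were higher and 4 lower. *Nqo1*, a quinone reductase and common reporter of NRF2, fell from 46.8, 46.6, 45.8 and 47.8 to 24.5, 24.3, 20.8 and 24.8 CPM (log2 fold change -0.99, SE 0.08, adjusted p = 3.38e-07). The glutathione transferases *Gsta4* and, outside the list, *Gsta1* fell from 66.97, 62.1, 77.5 and 73.7 to 29.4, 23.9, 23.98 and 30.3 CPM (log2 fold change -1.38, SE 0.12, adjusted p = 1.04e-06) and by 4.12-fold, and *Xdh*, xanthine dehydrogenase, rose by 0.62. *Gsta1* has a near-identical copy, and its separate count is uncertain. Promoters of the list held TGACNNNGC, the core of the antioxidant element, in 9 of 19 cases (47.4%, against 16.9%). Among aldehyde dehydrogenases, 7 of 13 fell, *Aldh3a1* from 151, 131, 159.9 and 166 to 76.6, 76.5, 67.3 and 79.02 CPM (log2 fold change -1.02, SE 0.08, adjusted p = 4.90e-07). Of these dehydrogenases 7 were also below parental levels in Spl-Gr1+CD11b+–primed cells. The ferritin chains *Ftl1* and *Fth1* fell by 1.89-fold and 1.46-fold (adjusted p = 1.24e-05 and 8.59e-04), in an iron list with 8 higher and 5 lower of 14.

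Cell cycle genes changed little in size. DNA replication genes fell in 19 of 35 cases (median -0.18), for example *Mcm5* of the replicative helicase by 1.31-fold. Mitosis genes divided into 8 higher and 9 lower of 30, close to the shares of all genes (31.2% and 28.0%), and the proliferation marker *Mki67* fell from 1158, 1160.0, 1271 and 1272 to 901, 866, 1026 and 886 CPM (log2 fold change -0.40, SE 0.12, adjusted p = 0.0126). *Cenpa*, the centromeric histone, was higher by 0.56 over all transcripts and did not pass the test over protein-coding ones (-0.03, adjusted p = 0.69). Genes of the p53 pathway and cell cycle inhibitors rose in 16 of 24 cases. *Trp53*, the p53 gene, was at 40.5, 41.01, 37.9 and 38.7 CPM against 20.7, 24.1, 15.2 and 14.4 CPM (log2 fold change 1.08, SE 0.15, adjusted p = 2.94e-05), and its antagonist *Mdm4* rose by 1.22. The inhibitor *Cdkn1b* (p27) rose from 52.8, 60.9, 44.5 and 40.6 to 92.2, 95.3, 98.1 and 92.1 CPM (log2 fold change 0.93, SE 0.10, adjusted p = 3.82e-06), *Ccng2* by 0.92 and *Gadd45a* by 1.06. Between the primed groups 5 of these 24 genes were called in favor of Tu-Gr1+CD11b+ priming and 1 against it (median log2 fold change -0.01). In Spl-Gr1+CD11b+–primed cells 13 of the 24 were likewise above parental levels (background 25.7%) and 2 below them. Apoptosis regulators rose in 16 and fell in 8 of 32 cases, with the inflammatory caspase *Casp4* (1.26) and *Bmf* (1.15) higher and *Bak1* (-0.54) lower.

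RNA processing genes fell into opposed classes. CLK kinases and regulators of nuclear speckles, the bodies that store splicing factors, rose in 21 of 23 cases (median 0.73), and SR splicing factors in 8 of 12. Under the alternatives run these counts went as low as 16 of 23 and 4 of 12. In the main fit 31.2% of all genes were higher. Core proteins of the spliceosome fell in 28 of 40 cases (median -0.30), against 28.0% of all genes. In Spl-Gr1+CD11b+–primed cells 22 of them were likewise below parental levels (background 22.5%). *Ccnl2*, a cyclin of the speckle, was at 82.04, 90.3, 94.3 and 76.9 CPM against 19.9, 24.4, 14.97 and 15.7 CPM (log2 fold change 2.19, SE 0.13, adjusted p = 5.70e-08), and *Paxbp1* and *Khdc4* rose by 1.87 and 1.58. *Srsf5* and *Srsf11* rose from 176, 204, 147 and 125 to 344, 364, 347 and 314 CPM (log2 fold change 1.07, SE 0.12, adjusted p = 6.05e-06) and from 118, 129.8, 119 and 111 to 241, 263, 260.4 and 215 CPM (log2 fold change 1.04, SE 0.07, adjusted p = 1.24e-07). Among the core proteins, *Sf3a2* fell by 1.78-fold. None of the CLK and speckle genes was called against Spl-Gr1+CD11b+–primed cells, whose scores (0.82, 0.87, 0.82 and 0.91) lay among those of the Tu-Gr1+CD11b+–primed libraries (0.86, 0.93, 0.96 and 0.83).

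Part of these rises lay in transcripts that keep an intron. Transcripts annotated as retained-intron held 3.28%, 3.44%, 3.48% and 3.26% of reads in primed libraries 1 to 4 and 2.08%, 2.27%, 2.09% and 2.04% in parental libraries 1 to 4 (means 3.36 ± 0.110% and 2.12 ± 0.102%, SD of 4 libraries, exact two-sided permutation p = 0.0286). The Spl-Gr1+CD11b+–primed libraries were at 3.34 ± 0.241%. Transcripts annotated as targets of nonsense-mediated decay held 2.37 ± 0.0323% against 2.00 ± 0.0846% (exact permutation p = 0.0286). Their share in the Spl-Gr1+CD11b+–primed libraries was 2.40 ± 0.0731%. Tu-Gr1+CD11b+–primed and parental libraries did not overlap in either share. Across genes, 6211 had a retained-intron transcript and a mean of at least 100 reads in both groups. In 2799 of these (45.1%) the retained-intron percent was higher in every primed than in every parental library, and in 33 (0.531%) it was lower throughout.

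**Figure D4:**
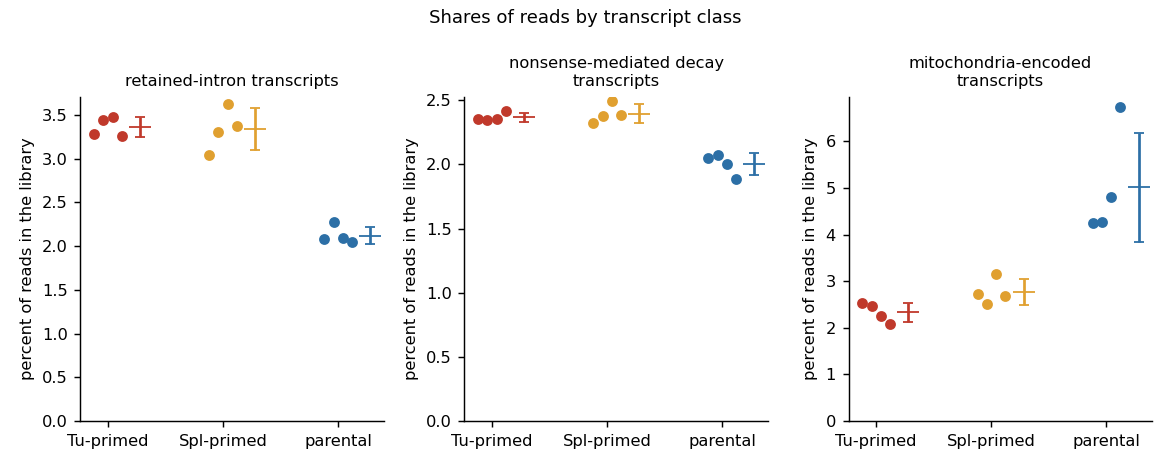
Percent of the reads of each library on transcripts annotated as retained-intron, as targets of nonsense-mediated decay and as mitochondria-encoded, by group, with the mean and SD of 4 libraries beside the points. Retained-intron shares lie between 3.26% and 3.48% in Tu-Gr1+CD11b+–primed and between 2.04% and 2.27% in parental libraries, and mitochondria-encoded shares run the other way.

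The retained-intron percent of *Ccnl2* was 63.8 ± 1.45% in primed and 25.4 ± 10.4% in parental libraries, that of *Srsf11* 53.3 ± 5.01% and 14.7 ± 3.405%, and that of *Srsf3* 17.3 ± 1.45% and 2.16 ± 1.78%. Over protein-coding transcripts alone the log2 fold change of *Ccnl2* was 0.36 (adjusted p = 0.0374), of *Srsf11* 0.18 (adjusted p = 0.0116) and of *Khdc4* 0.60 (adjusted p = 2.20e-04). That of *Srsf3* was -0.75 (adjusted p = 5.99e-06), against -0.01 over all its transcripts, that of *Srsf5* was 0.78 and that of *Paxbp1* was 1.47. Such shares rest on the division of reads among overlapping transcripts by the quantification. Nonsense-mediated decay factors, which degrade such RNAs, had 3 higher and 5 lower of 15, beside 31.2% and 28.0% of all genes. The helicase *Upf1* was lower by 1.26-fold (adjusted p = 4.89e-04). A part of these factors in the shares above was not tested.

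Zinc finger and chromatin genes were more often higher than lower, whereas 31.2% of all genes were higher and 28.0% lower. Of 330 tested Zfp genes, 157 rose and 34 fell (median 0.26), for example *Zfp692* from 2.56, 2.72, 1.68 and 1.88 to 8.27, 10.6, 10.03 and 9.405 CPM (log2 fold change 2.11, SE 0.17, adjusted p = 4.64e-07), while *Zfp628* fell by 1.72-fold. In Spl-Gr1+CD11b+–primed cells 136 of these Zfp genes were likewise above parental levels (background 25.7%), and between the primed groups 4 were higher and 5 lower. Of histone lysine methyltransferases and demethylases, 16 of 36 rose, including *Kdm3a*, a demethylase that is itself induced by hypoxia, by 0.92. In Spl-Gr1+CD11b+–primed cells 12 of them were above parental levels. In the circadian list the repressor *Bhlhe40* rose from 27.1, 28.7, 27.6 and 29.5 to 77.1, 76.001, 75.1 and 67.2 CPM (log2 fold change 1.39, SE 0.11, adjusted p = 5.33e-07), *Per3* by 0.97, and *Nr1d1* (REV-ERBα) fell by 1.597-fold.

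The purine receptor *P2ry6*, which responds to UDP, was at 12.1, 10.8, 14.9 and 8.36 CPM against 1.95, 1.4004, 1.97 and 2.16 CPM (log2 fold change 2.62, SE 0.19, adjusted p = 2.53e-07), lowest in primed library 4 without overlap. Of the purinergic list 5 of 12 rose, *Nt5e* among them, and none fell, beside 31.2% and 28.0% of all genes.

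Of the 12 higher genes with the smallest p, those outside the lists were *Lilr4b*, *Rgs11*, *Sbno2*, *Odf2l* and *Mid1*. *Lilr4b* (ENSMUSG00000112023, chromosome 10 from 51480632 to 51486703 of GRCm38), a receptor of the leukocyte immunoglobulin-like family, was at 102, 108, 113 and 79.9 CPM against 14.9, 17.1, 15.3 and 12.6 CPM (log2 fold change 2.75, SE 0.12, adjusted p = 1.08e-08). It is known from myeloid cells, it was counted in parental cells as well, and its retained-intron percent was 75.8 ± 3.54% in primed and 39.2 ± 4.58% in parental libraries. A neighboring gene of similar sequence makes its count uncertain. *Rgs11* (ENSMUSG00000024186, chromosome 17 from 26202951 to 26211324), a regulator of G protein signaling, rose from 0.438, 0.741, 0.377 and 0.3197 to 14.97, 18.2, 16.3 and 17.4 CPM (log2 fold change 5.15, SE 0.25, adjusted p = 1.38e-08), with 96.99 ± 3.34% of its primed and 96.7 ± 6.64% of its parental reads on a retained-intron transcript. *Sbno2* (ENSMUSG00000035673, chromosome 10 from 80056992 to 80105571), a transcriptional coregulator induced by gp130 cytokines, rose from 41.3, 43.3, 41.8 and 47.6 to 102, 102, 106 and 95.8 CPM (log2 fold change 1.22, SE 0.06, adjusted p = 1.38e-08). *Odf2l*, a centrosomal protein gene, and *Mid1*, a ubiquitin ligase of microtubules, rose by 1.45 and 1.73. *Rgs11* and *Mid1* were at 12.9 ± 3.32 and 34.5 ± 4.58 CPM in Spl-Gr1+CD11b+–primed cells and were not called between the primed groups (adjusted p = 0.186 and 0.685). Among the lower genes with the smallest p, *St6galnac4*, a sialyltransferase, and *Endod1* fell by 1.74-fold and 1.62-fold. Among those with the largest change, *Chchd10* of mitochondria and *Ass1* of arginine synthesis fell by 2.73-fold and 2.54-fold.

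Calls were spread unevenly over the level and length of genes. With the tested genes divided into 5 bins of 2511 by the mean CPM over all 12 libraries, 38.2% were called higher and 7.33% lower in the bin of lowest level, and 19.9% and 45.7% in the bin of highest level. Genes low in every group are removed by the filter, so the bin of lowest level includes genes that passed through the group in which they are higher. With bins by transcript length, 19.2% were called higher and 40.5% lower among the shortest, which had a median length of 713 bases. The median log2 fold change was -0.14 in that bin and between 0.01 and 0.08 in the others. The 50 most abundant genes took 12.98% to 13.6% of CPM in primed and 16.5% to 20.6% in parental libraries, and more genes had a count in primed (15073 to 15126) than in parental libraries (14249 to 14585). The part of length and level in the results above was not tested beyond the alternative fits.

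**Figure D5:**
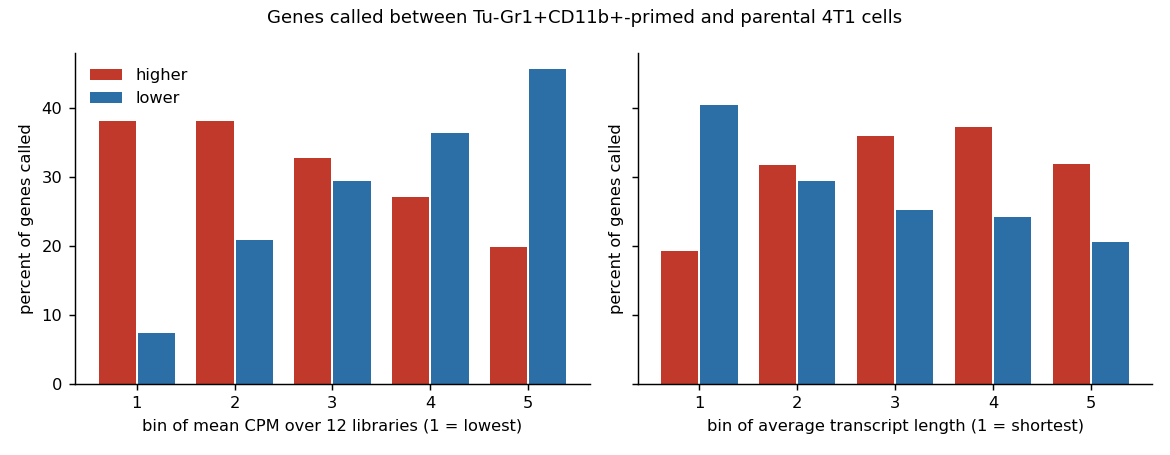
Percent of tested genes called higher (red) and lower (blue) in Tu-Gr1+CD11b+–primed than in parental 4T1 cells, in 5 bins of the mean CPM over all 12 libraries (left) and of the average transcript length (right), from lowest or shortest to highest or longest. The share called lower rises from 7.33% in the lowest to 45.7% in the highest bin of level, and is 40.5% in the bin of shortest transcripts.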

How the data were processed

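RNA of 4T1 cells was read by stranded RNA-Seq in 12 libraries, of which 8 are compared here. Per the labels, the authors used FastQC, Trimmomatic 0.39 and Salmon 1.4.0 with GRCm38/mm10 to make the deposited estimated counts per Ensembl transcript. The deposited TPM values, scaled by the authors to transcript length and depth, served for an alternative share of reads. A table of values normalized by the authors was not used. Estimated counts were summed to genes (GENCODE M21 annotation), rounded, filtered with filterByExpr, scaled by TMM and tested with edgeR 4.0.16 across all 12 libraries, with 0.05 as the threshold of the Benjamini-Hochberg adjusted p. Depth was 24566183 to 31637755 reads, of which 0.326% to 0.419% lay on transcripts absent from the annotation and were left out. No pair of replicates agreed within sampling noise. Shares of reads were compared by an exact two-sided permutation test. The scripts were tested on simulated data.

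Named genes were those with the smallest p (12 per direction) or largest change (15 per direction), members of functional lists, genes the study names and genes whose promoter is shown. Members and lists were chosen with earlier results of these data known. Alternatives comprised DESeq2 1.42.0, limma-voom (limma 3.58.1), other normalizations and filters, length corrections, protein-coding transcripts alone, a replicate block and leaving out each library. Equal replicate numbers were not taken to pair the libraries. Some items are not reported here.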

Additional observations from a re-analysis of the deposited data

Results flagged for a closer look

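Within groups of 4 libraries, 480 sets of values were examined for a library set far apart from the other 3 (gap over range above 0.829), and 21 met this (4.375%). Chance gives about 1 in 20. Library 4 of the Tu-Gr1+CD11b+–primed group accounted for 7 of the 21 and parental library 4 for 5, and the causes were not tested.

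Tu-Gr1+CD11b+–primed library 4 stood highest of its group in *Aldoc* (12.3 CPM), *Eef2* (3022 CPM) and *Wnt7b* (194 CPM) and lowest in *Fth1* (1965 CPM), *mt-Nd1* (2181 CPM) and *Vwf* (0.382 CPM), and it held the single count of *Ifna4* (0.0347 CPM). Library 1 was highest in *Hspd1* (693 CPM) and *Il6* (0.319 CPM), library 3 lowest in *Nqo1* (20.8 CPM). Library 2 was highest in *Mrc1* (4.0001 CPM), and it had the fewest reads of its group (24566183) and the single count of *Ifnb1* (0.0388 CPM).

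Parental library 4 was highest of its group in the score of the interferon-stimulated genes (0.0843), in *Gbp2* (12.3 CPM) and in *Oas2* (0.03996 CPM, 1 count), and lowest in *Ifih1* (8.75 CPM) and *Oas1g* (0.3996 CPM). Parental library 2 was highest in *Cxcl10* (1.11 CPM) and *Rps18* (15.1 CPM), and parental library 3 in *Osm* (0.0839 CPM).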

How the results depend on the processing

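Of the comparisons of Tu-Gr1+CD11b+–primed with parental 4T1 cells, the counts of higher and of lower genes stayed within 1.5 times the reported count under all alternatives run. Leaving out a library gave 3512 to 4172 higher and 3150 to 3796 lower genes. Genes lower by over 1 on the log2 scale numbered 50 without parental library 4 and 109 without parental library 2, and those higher by over 1 numbered 826 to 1015. The comparison with Spl-Gr1+CD11b+–primed cells was less stable. Higher genes numbered 349 with transcript length offsets, 349 at an adjusted p under 0.01, and 402 to 662 without a library. Lower genes numbered 146 with length offsets, 640 with the length trend removed, 96 at an adjusted p under 0.01, and between 118 (without Tu-Gr1+CD11b+–primed library 3) and 531 (without library 4). The cause was not tested.

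Retained-intron, nonsense-mediated decay and mitochondria-encoded shares differed by 1.20 to 1.29, 0.326 to 0.39 and -2.94 to -2.11 percentage points without a library.

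Equal numbers correlated between Tu-Gr1+CD11b+–primed and parental libraries by 0.148, 0.0839, 0.0877 and 0.134, and not every value exceeded 0.1, so the numbers were not taken to pair the libraries. In 3 of the 4 the own number correlated best, a hint of pairing from the data and not from the design. A replicate block gave 3805 higher and 3389 lower genes against parental cells, 488 and 256 against Spl-Gr1+CD11b+–primed cells. With the replicate block the 3 share differences were 1.24, 0.365 and -2.68 with p = 0.125, the smallest that an exact sign-flip permutation of 4 pairs allows.

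With protein-coding transcripts alone, 4 named genes turned direction: *Cenpa* (-0.0318), *Gnl3* (-0.0044), *Porcn* (-1.57) and *Rps18* (-0.62), because reads on their noncoding transcripts are left out there. In all, 5225 of the values of named genes under an alternative kept direction and side of the threshold, 38 lost the call and 10 gained it. Of those lost, 16 were of *Vwf* and 9 of *S100a8*. With length offsets *Il6st*, *Dsp* and *Jak1* lost it, with protein-coding transcripts alone *Mavs*, and without Tu-Gr1+CD11b+–primed library 3 *Jak2* (0.21). *mt-Co2* gained it without Tu-Gr1+CD11b+–primed library 1 (-0.97) or 2 (-0.98) or parental library 3 (-0.96), and *mt-Nd6* without Tu-Gr1+CD11b+–primed library 4 (0.74). Counts over lists stayed within 1.5 times in 2808 cases and moved further in 96. Depth limits statements on genes below 0.122 CPM.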
